A study of Rattus norvegicus with 2 samples.

Results

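The cells described here are cycling cells of rat lung, taken by a gate on 7 proliferation genes from droplet single-cell RNA-seq of 2 libraries. A barcode was kept if it held at least 200 genes, and cycling cells were selected on the condition that at least 3 of Mki67, Top2a, Cenpf, Birc5, Ube2c, Cdk1 and Nusap1 had a UMI (a unique molecular identifier, 1 captured RNA molecule). The gate found 479 cycling cells of 33546. Of these, 157 came from 12450 cells of the explosion library and 322 from 21096 cells of the control library. By the markers of single cells, the largest named class was like alveolar macrophages, the resident phagocytes of the airspaces, with 39.5% of the cycling cells in explosion and 55.6% in control. Natural killer (NK)-like and T lymphocyte-like cells cycled in both libraries, and B lymphocyte-like cells passed the gate in explosion. In control a group of ciliated-like cells with genes of multiciliated precursors passed it too, though this difference from explosion was not detectable at matched depth.

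Cells that divide copy their DNA in S phase, with helicase and clamp proteins of the Mcm family and Pcna, and then switch on a later wave of genes for chromosome condensation, the spindle and cell separation. All 7 gate genes belong to that later wave. Mki67 coats mitotic chromosomes, Top2a untangles DNA, Cenpf sits at the kinetochore, Birc5 is a subunit of the chromosomal passenger complex, Ube2c feeds the anaphase-promoting complex, Cdk1 is the mitotic kinase and Nusap1 binds spindle microtubules. In the adult lung, alveolar macrophages are known to renew themselves locally, lymphocytes divide when activated, and airway ciliated cells arise from precursors that use part of the mitotic machinery to build many centrioles without dividing.

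The explosion group was lung of rats exposed to a gas explosion, and the control group was lung of rats labelled as controls. The treatment protocol of both samples names the explosion, so the groups rest on the treatment label alone. Both were kept specific pathogen free, and both lungs were digested with enzymes, with red cells lysed and dead cells removed before capture. The labels give 1 library a group and state neither the number of animals pooled nor the strain, the age or the time after the explosion. There was therefore no replicate and no test. Intervals in brackets are exact 95% intervals (Clopper-Pearson for shares, Poisson for levels, conditional binomial for ratios), and they cover counting error only, not the spread between animals. Those of levels and of ratios of levels count each UMI as independent. They leave out the spread between cells too, and are too narrow where few cells hold most UMIs. Lung cells as a whole had a median of 546 UMIs and 428 genes in the explosion library, against 4920.5 UMIs and 1830 genes in the control library. Cycling cells had a median of 1427 UMIs (range 258 to 3257) in the explosion library, against 9432 UMIs (825 to 93204) in the control library. The libraries shared 85 barcodes, none of which was cycling in both. Scgb1a1, the secretory cell protein, had a UMI in 278 of 278 NK-like cells and 1884 of 1912 alveolar macrophage-like cells of the explosion library, types that should lack it, so a UMI of an abundant gene does not show that a cell expressed it.

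Since the gate reads whether a gene has a UMI, it depends on depth. In the explosion library Mki67 carried most of it, with a UMI in 153 of 157 cycling cells, followed by Top2a in 132, Cenpf in 105, Nusap1 in 84, Birc5 in 62, Ube2c in 51 and Cdk1 in 49. In the control library the 322 cycling cells had Mki67 in 302, Cenpf in 291, Top2a in 249, Birc5 in 228, Ube2c in 213, Cdk1 in 211 and Nusap1 in 196. Just inside the gate, with exactly 3 genes, lay 65 explosion cells at a median of 1207 UMIs and 71 control cells at 7229 UMIs. Just outside it, with 2 genes, lay 84 explosion cells at a median of 945.5 UMIs and 171 control cells at 12859 UMIs. All 7 genes were seen in 5 explosion cells and in 109 control cells.

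The promoters of the gate genes show 2 short strings that are known in genes of the late cell cycle: CCAAT, read by the factor NF-Y, and TTTGAA, the core of the cell cycle homology region bound by the DREAM and MuvB complexes. Below are RefSeq windows of build GRCr8, from 250 bases before to 50 bases after the gene start, for Mki67 (chr1:199952544-199952843, minus strand), Top2a (chr10:84473044-84473343, minus), Cdk1 (chr20:19265043-19265342, plus) and, for contrast, Ccno (chr2:46363824-46364123, plus), a gene of ciliated precursors. They are printed 5′ to 3′ on the gene's strand, and capitals mark TTTGAA and CCAAT on either strand (TTCAAA and ATTGG on the other). In Mki67 a TTTGAA and an ATTGG share a base.
Mki67: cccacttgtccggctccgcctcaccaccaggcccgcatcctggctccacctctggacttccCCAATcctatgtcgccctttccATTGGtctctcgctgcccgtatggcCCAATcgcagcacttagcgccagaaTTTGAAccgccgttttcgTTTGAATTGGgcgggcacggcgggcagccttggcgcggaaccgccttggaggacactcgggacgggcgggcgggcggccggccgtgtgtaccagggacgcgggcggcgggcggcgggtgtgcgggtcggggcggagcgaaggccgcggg
Top2a: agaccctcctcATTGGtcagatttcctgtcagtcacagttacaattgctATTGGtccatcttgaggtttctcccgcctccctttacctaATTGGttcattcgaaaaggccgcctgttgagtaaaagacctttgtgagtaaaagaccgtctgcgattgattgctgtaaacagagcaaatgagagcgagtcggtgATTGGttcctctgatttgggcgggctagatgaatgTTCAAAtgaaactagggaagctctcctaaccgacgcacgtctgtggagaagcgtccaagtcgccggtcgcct
Cdk1: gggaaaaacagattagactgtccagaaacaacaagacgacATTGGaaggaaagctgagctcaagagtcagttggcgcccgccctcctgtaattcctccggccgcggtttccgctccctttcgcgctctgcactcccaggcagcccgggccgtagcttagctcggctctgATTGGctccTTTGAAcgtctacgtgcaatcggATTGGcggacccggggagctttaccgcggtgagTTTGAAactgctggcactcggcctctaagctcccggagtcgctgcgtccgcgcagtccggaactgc
Ccno: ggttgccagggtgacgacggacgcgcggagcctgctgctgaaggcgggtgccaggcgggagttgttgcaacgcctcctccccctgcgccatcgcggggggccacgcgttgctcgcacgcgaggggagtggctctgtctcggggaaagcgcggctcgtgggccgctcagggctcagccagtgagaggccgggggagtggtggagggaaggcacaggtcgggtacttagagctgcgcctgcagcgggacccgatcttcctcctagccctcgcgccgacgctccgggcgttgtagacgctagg
Of the 7 gate genes, 6 had a promoter in the table (Ube2c did not match), and 6 of 6 held TTTGAA and 6 of 6 held CCAAT, as did 18.4% and 37.5% of all 33469 promoters. Of 42 other mitosis and G2 genes 36 matched, with TTTGAA in 28 (77.8%) and CCAAT in 28 (77.8%). Of 40 S phase genes 30 matched, with TTTGAA in 3 (10.0%) and CCAAT in 17 (56.7%), while TTTCGCGC, an E2F-like string on either strand, stood in 10 (33.3%), against 0.326% of all promoters 1 of the 6 gate genes (16.7%, the printed Cdk1 window) and none of the 36 mitosis promoters. Of 7 precursor genes 6 matched, with TTTGAA in 0 and CCAAT in 2. These matches describe letters in a window.

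By the gate alone, cycling cells made up 1.26% (1.07 to 1.47) of the explosion library and 1.53% (1.37 to 1.70) of the control library, a ratio of 0.826 (0.678 to 1.003). The level of the 7 genes ran the other way, at 259 (249 to 270) UMIs per 1000000 UMIs (CPM) over all explosion cells, against 99.4 (97.8 to 101) CPM over all control cells, a ratio of 2.61 (2.50 to 2.73). No order is therefore read from the raw share. After thinning every cell to 500 UMIs, which left out 5706 explosion cells and 0 control cells with fewer, 61 of 6744 explosion cells (0.904%, 0.693 to 1.16) and 68 of 21096 control cells (0.322%, 0.2504 to 0.409) passed the gate, a ratio of 2.81 (1.95 to 4.02). Among cells of 1000 to 2000 UMIs, 93 of 2642 explosion cells (3.52%) and 4 of 3213 control cells cycled. Those are the deep end of the explosion library and the shallow end of the control library. By gene, the level over all cells was 100 CPM in explosion against 22.2 CPM in control for Mki67 (4.50-fold), 44.7 against 11.6 CPM for Top2a (3.87-fold) and 58.0 against 36.9 CPM for Cenpf (1.57-fold). In a suspension of dissociated tissue, a higher level over all cells of a library cannot be told apart from a different recovery of cell types.

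Lineages were assigned to single cells from markers that leave out cell cycle genes, and each is named "-like" here because it rests on markers alone. A cell needed at least 1 marker of its class with a UMI. Counts of these markers within and between classes therefore describe the assignment and do not test it. By these markers, alveolar macrophage-like cells were the most frequent cycling cells in both libraries, with 62 of 157 (39.5%, 31.8 to 47.6) in explosion and 179 of 322 (55.6%, 49.98 to 61.1) in control. NK-like cells were next in explosion, at 32 cells (20.4%, 14.4 to 27.5), against 25 (7.76%, 5.09 to 11.3) in control. T-like cells gave 7 explosion and 25 control cycling cells, and B-like cells gave 7 and 0. Ciliated-like cells gave 1 explosion and 30 control cycling cells. A further 37 explosion cells (23.6%) and 32 control cells (9.94%) could not be assigned. Of the 37 unassigned explosion cells 19 lay in the NK-like cluster of the whole data set and 6 in a T-like cluster, and of the 32 unassigned control cells 16 lay in a ciliated-like cluster. The ratio of the NK-like share of cycling cells between the libraries was 2.63 (1.51 to 4.62), and it was 1.25 (0.594 to 2.53) when 2 markers were required of each cell. Named by cluster instead, the order in explosion was another: 57 cycling cells lay in NK-like and 20 in alveolar macrophage-like clusters in explosion, against 27 and 69 in control. The ratio of the share of cycling cells was then 4.33 (2.69 to 7.12) for NK-like and 0.5945 (0.342 to 0.990) for alveolar macrophage-like cells. Many alveolar macrophage-like cycling cells lay in cluster 20, which had too few markers for a name and was led by Mki67, Stmn1 and Nusap1: it held 40 of the 62 explosion and 90 of the 179 control cycling cells that single-cell markers called alveolar macrophage-like.

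**Figure D1:**
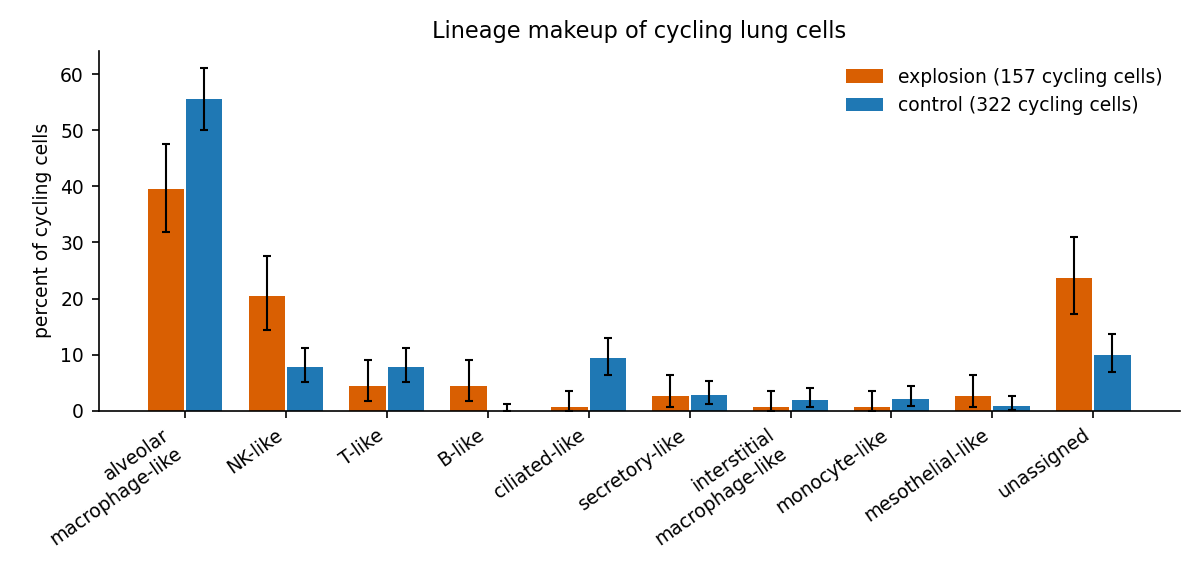
Percent of all cycling cells in each marker-defined lineage, in explosion (orange, 157 cells) and control (blue, 322 cells), with exact 95% intervals for counting error. Alveolar macrophage-like cells form the tallest bars in both libraries, NK-like and unassigned cells have the higher bars in explosion, and ciliated-like and T-like cells have the higher bars in control.

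Alveolar macrophage-like cells cycled in 62 of 1912 explosion cells (3.24%, 2.50 to 4.14) and in 179 of 9408 control cells (1.90%, 1.636 to 2.199), a ratio of 1.70 (1.26 to 2.29). Thinned to 500 UMIs the shares were 15 of 1607 (0.933%) in explosion and 29 of 6593 (0.440%) in control, a ratio of 2.12 (1.06 to 4.09). Named by cluster, it was 20 of 1849 explosion and 69 of 8629 control cells, a ratio of 1.35 (0.779 to 2.25), an interval that includes equal shares. Naming by cluster leaves out the unnamed cluster 20, which held 40 of the 62 explosion and 90 of the 179 control cycling cells of this class. That ratio therefore covers a part of the cycling cells only. Cells of this class had a median of 1196 UMIs in explosion and 5983 UMIs in control. All its cells, cycling or not, were not in the same cluster in both libraries: they lay mostly in cluster 4 in explosion and in clusters 6 and 24 in control. Several markers of the lineage were frequent in the cycling cells: Mrc1, the mannose receptor, had a UMI in 56 of 62 explosion and 175 of 179 control cycling cells, Abcg1, a cholesterol exporter, in 47 of 62 and 169 of 179, and Fabp4, a lipid carrier, in 21 of 62 and 147 of 179. In NK-like cells outside the gate Mrc1 had a UMI in 12 of 246 explosion and 43 of 418 control cells. The summed alveolar macrophage markers in cycling cells were 0.672 times their level in other cells of the class in explosion, with 0 of 7 tested members at least 2-fold higher and 1 lower, and 0.783 times in control, with 0 of 8 higher and 1 lower. Over all genes 18.0% were higher and 10.9% lower in explosion, and 14.1% and 5.27% in control. The lower marker in both libraries was Ltc4s, leukotriene C4 synthase, which in explosion had 0 UMIs in cycling and 73 UMIs in other cells. In control Ltc4s was at 104 CPM in cycling against 243 CPM in other cells (0.429-fold, 0.369 to 0.496).

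The gate chose these cells on genes of the same programme, so the levels of the other cell cycle genes in cycling against other cells are a description with no test. In explosion the 42 mitosis and G2 genes outside the gate summed to 10540 CPM in cycling against 534 CPM in other alveolar macrophage-like cells (19.7-fold, 18.2 to 21.4). Of this list, 40 of the 40 members with at least 10 UMIs were at least 2-fold higher, where 18.0% of all genes were higher and 10.9% lower by 2-fold. In control the sum of this list was 6959 against 236 CPM (29.4-fold, 28.7 to 30.2), with 42 of 42 members, where 14.1% were higher and 5.27% lower. Here and in the other lineages, a member could pass the limit of 10 UMIs through the cycling cells alone. Racgap1, which regulates the contractile ring, was 115-fold higher in explosion cycling cells, Kif20b, a kinesin of cell separation, 101-fold, and Kif11, the kinesin that pushes spindle poles apart, 80.9-fold. In control Cdca3 was 447-fold, Kif11 418-fold and Ccna2, cyclin A2, 353-fold higher. Aurka, the centrosome kinase, was the lowest member in both, at 2.13-fold (0.888 to 4.41) in explosion and 2.74-fold in control.

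S phase genes stood less far above other cells than mitosis genes did. Their summed level in explosion was 7175 CPM in cycling against 1186 CPM in other cells (6.05-fold, 5.59 to 6.55), with 35 of 36 tested members at least 2-fold higher, and in control 3985 against 503 CPM (7.93-fold), with 39 of 40. The share of all genes at least 2-fold higher, which stands beside every list in this paragraph, was 18.0% in explosion and 14.1% in control. Clspn, an adaptor of the replication checkpoint, was 32.2-fold, Dtl, which targets replication factors for destruction, 25.6-fold and Tk1, thymidine kinase, 13.5-fold higher in explosion cycling cells. In control Rrm2, the regulated subunit of ribonucleotide reductase, had 207 UMIs in cycling and 5 UMIs in other cells, and Pclaf, a partner of Pcna, was 498-fold higher. Ung, which removes uracil from DNA, was the lowest member named in explosion, at 1.35-fold, and stood at 1.90-fold in control. Chromatin and tubulin genes were 5.73-fold higher in explosion and 6.24-fold in control, with 12 of 12 members in each, led by Stmn1, a tubulin-binding protein, at 48.4-fold and 137-fold. DNA damage and repair genes were 6.62-fold (14 of 15 members) and 7.36-fold (15 of 16) higher. G1 cyclins and kinases, by contrast, were at 1.14-fold in explosion and 1.23-fold in control, and the inhibitors and growth factor receptors in explosion at 1.05-fold and 0.791-fold.

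Among genes outside the cell cycle and marker lists that were lower in cycling alveolar macrophage-like cells, Spp1, osteopontin, had 2 UMIs in 1 cycling cell against 739 UMIs in 169 other cells in explosion (0.0548-fold, 0.00662 to 0.199). In control the lowest were Tac1, the precursor of substance P, at 55.2 CPM in cycling against 158 CPM in other cells (0.349-fold, 0.283 to 0.425), Cfd, complement factor D, at 0.370-fold and Gpd1, a glycerol phosphate dehydrogenase, at 0.378-fold.

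**Figure D2:**
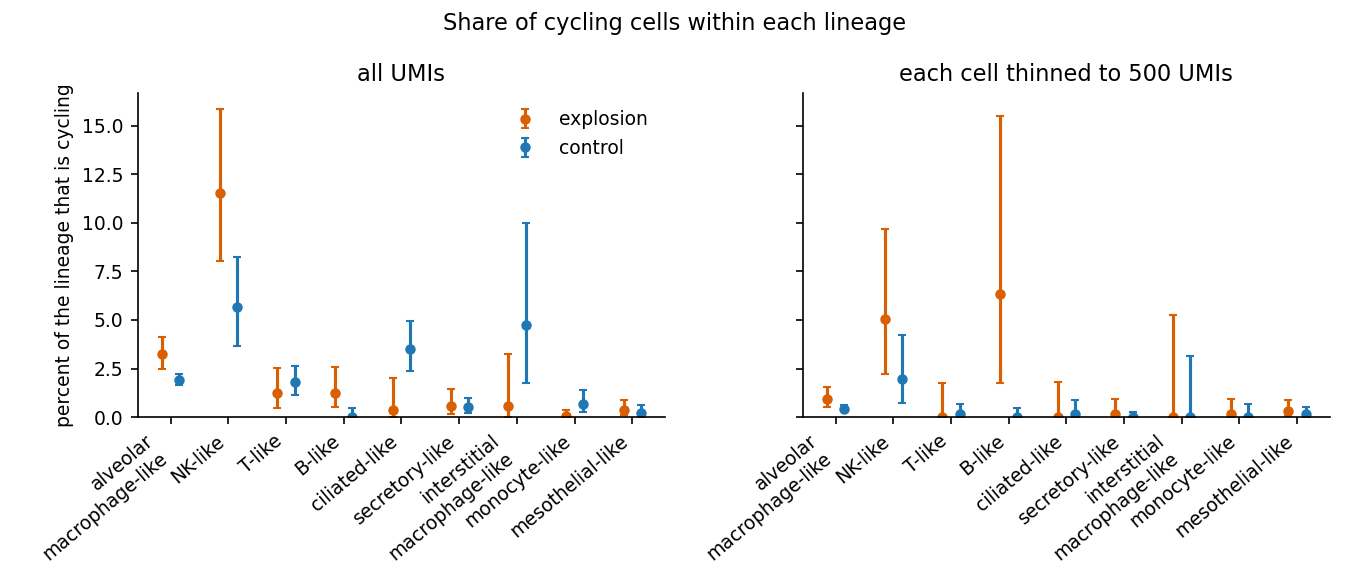
Percent of the cells of each marker-defined lineage that passed the gate, from all UMIs (left) and after thinning each cell to 500 UMIs (right), in explosion (orange, drawn first) and control (blue), with exact 95% intervals. NK-like cells have the highest share in both libraries in the left panel, and ciliated-like cells have a visible share in control, 3.49%, that is near 0 in the right panel.

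NK-like cells had the highest cycling share of any lineage with at least 20 cells in each library. The gate took 32 of 278 explosion cells (11.5%, 8.01 to 15.9) and 25 of 443 control cells (5.64%, 3.69 to 8.22), a ratio of 2.04 (1.17 to 3.59), though in control the interval overlaps that of interstitial macrophage-like cells. With at least 4 gate genes required it was 18 of 278 against 24 of 443, a ratio of 1.20 (0.611 to 2.30), and thinned to 500 UMIs 8 of 159 (5.03%) against 6 of 304 (1.97%), a ratio of 2.55 (0.776 to 8.91). The level of the 7 genes over all NK-like cells was 1971 CPM (1780 to 2176) in explosion against 682 CPM (632 to 736) in control, 2.89-fold (2.54 to 3.28). All 32 explosion cycling NK-like cells and 23 of the 25 in control lay in 1 shared cluster, cluster 10. Among cells of 1000 to 2000 UMIs 23 of 45 explosion NK-like cells cycled, against 1 of 241 in control. All NK-like cells had a median of 615 UMIs in explosion and 1686 UMIs in control, so that bin is the deep end of the explosion cells only. Among cells of 2000 to 4000 UMIs 0 of 1 explosion and 13 of 98 control NK-like cells (13.3%) cycled.

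Cycling NK-like cells were assigned by markers that include the receptors named here, so the counts below describe the assignment and do not test it. Ncr1, the activating receptor NKp46, had a UMI in 10 of 32 explosion and 9 of 25 control cycling cells, Klrd1, the CD94 chain, in 12 of 32 and 20 of 25, and Klrb1a in 9 of 32 and 25 of 25. Eomes, a transcription factor of NK cells, had one in 10 of 32 and 5 of 25, and Cd3e, a chain of the T cell receptor complex, in 1 of 32 and 1 of 25. In alveolar macrophage-like cells outside the gate, which should lack them, Ncr1 had a UMI in 2 of 1850 explosion and 33 of 9229 control cells and Klrd1 in 3 of 1850 and 82 of 9229. The summed NK markers were 1517 CPM in cycling against 2363 CPM in other NK-like cells of explosion, and 1706 against 1965 CPM in control.

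The contrast between cycling and other NK-like cells was much smaller in explosion. Mitosis genes outside the gate were at 9237 CPM in cycling against 2033 CPM in other cells of explosion (4.54-fold, 3.89 to 5.30), with 20 of 22 tested members at least 2-fold higher, where 11.6% of all genes were higher and 12.3% lower. In control they were at 8660 against 380 CPM (22.8-fold, 20.1 to 26.0), with 35 of 35, where 15.7% were higher and 16.8% lower. Of these 35 members, 9 had 0 UMIs in other cells and passed the limit of 10 UMIs through the cycling cells alone. S phase genes were at 5057 against 4067 CPM in explosion (1.24-fold, 1.05 to 1.46), with 5 of 26 members higher and 4 lower by 2-fold, and at 2358 against 744 CPM in control (3.17-fold, 2.72 to 3.68), with 15 of 22 higher. With at least 4 gate genes required the explosion S phase value was 1.01-fold. Cells that passed the gate held 67.5% of the gate gene UMIs of NK-like cells in explosion and 94.4% in control, beside medians of 615 and 1686 UMIs per NK-like cell. In explosion Cenpe, a kinetochore motor, was 11.3-fold, Incenp, a scaffold of the passenger complex, 5.23-fold and Hmgb2, a chromatin protein, 4.46-fold higher in cycling cells, and Pcna, the replication clamp, was at 0.786-fold. In control Tpx2, which loads Aurora A on the spindle, had 41 UMIs in cycling against 2 in other cells, Pttg1, securin, was 122-fold higher and Hmmr, a spindle protein, 129-fold. Slfn5 had 1 UMI in explosion cycling cells and 73 UMIs in 57 other cells. Genes of other cell types were also at 0 in the control cycling cells: Agr2 and Krt19, of airway epithelium, had 0 UMIs in cycling cells and 91 and 73 UMIs in other cells, and Spi1, of myeloid cells, had 0 and 71.

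T-like cells cycled in 7 of 571 explosion cells (1.23%) and in 25 of 1399 control cells (1.79%), a ratio of 0.686 (0.251 to 1.63), an interval that includes equal shares, and no order is read from it because the level of the gate genes ran the other way. Those genes were over all T-like cells at 376 CPM in explosion against 181 CPM in control (2.08-fold, 1.69 to 2.55), and thinned to 500 UMIs the gate took 0 of 207 and 2 of 1079 cells. Of the 25 control cells 23 had Cd3e, 16 had Bcl11b, a T lineage factor, 12 had Cd8b and 8 had Cd4, while 3 of the 7 explosion cells had Cd3e. In control, cycling T-like cells had mitosis genes at 5216 against 441 CPM in other cells (11.8-fold, 10.78 to 12.95), with 34 of 35 members at least 2-fold higher where 21.6% of all genes were higher and 12.8% lower, and S phase genes at 5340 against 718 CPM (7.44-fold), with 39 of 39. G1 cyclins and kinases summed to 2.06-fold, with 6 of 9 members at least 2-fold higher, among them Ccnd3, cyclin D3, at 3.88-fold and Cdk4 at 2.77-fold. In the same list 2 of 9 were lower: Ccnd1, cyclin D1, at 0.329-fold from 1 UMI in cycling cells, and the growth regulator Myc at 0.384-fold. Hypoxia and glycolysis genes summed to 2.06-fold, with 4 of 10 members higher and 0 lower, led by Gapdh at 3.22-fold. Of 10 tested growth factor and cytokine receptors 4 were at least 2-fold lower and 2 higher. Il7r, the receptor of interleukin 7, was at 68.9 CPM in cycling against 315 CPM in other cells (0.219-fold, 0.104 to 0.404). Cell cycle inhibitors and p53 targets summed to 0.667-fold, but 4 of 14 tested members were higher and 1 lower, with a median of 0.53 on the log2 scale. The lower one was Btg1, an antiproliferative factor, at 248 against 887 CPM (0.280-fold, 0.195 to 0.388). Outside the lists, Tnfrsf14, the receptor HVEM, had 2 against 889 UMIs. Cd40lg, the CD40 ligand, had 0 UMIs in the 25 cycling cells and 183 UMIs in 153 other cells.

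B-like cells cycled in 7 of 555 explosion cells (1.26%, 0.509 to 2.58) and in 0 of 830 control cells, which allows a share of up to 0.361%. Thinned to 500 UMIs it was 4 of 63 explosion and 0 of 775 control cells. The gate genes were at 443 CPM (359 to 541) over explosion B-like cells against 32.1 CPM (22.4 to 44.7) over control B-like cells, 13.8-fold (9.28 to 20.9). The 7 cycling cells held 66 of the 96 gate gene UMIs of explosion B-like cells. Of the 7 explosion cells 5 had Pax5, the B lineage factor, 4 had Cd79a and 4 had Cd79b, the signalling chains of the B cell receptor, and 4 had Ms4a1, the CD20 antigen. The B-like cluster 14 held 808 explosion and 166 control cells, and the B-like cluster 19 held 6 and 795. All 7 cycling B-like cells were in cluster 14.

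**Figure D3:**
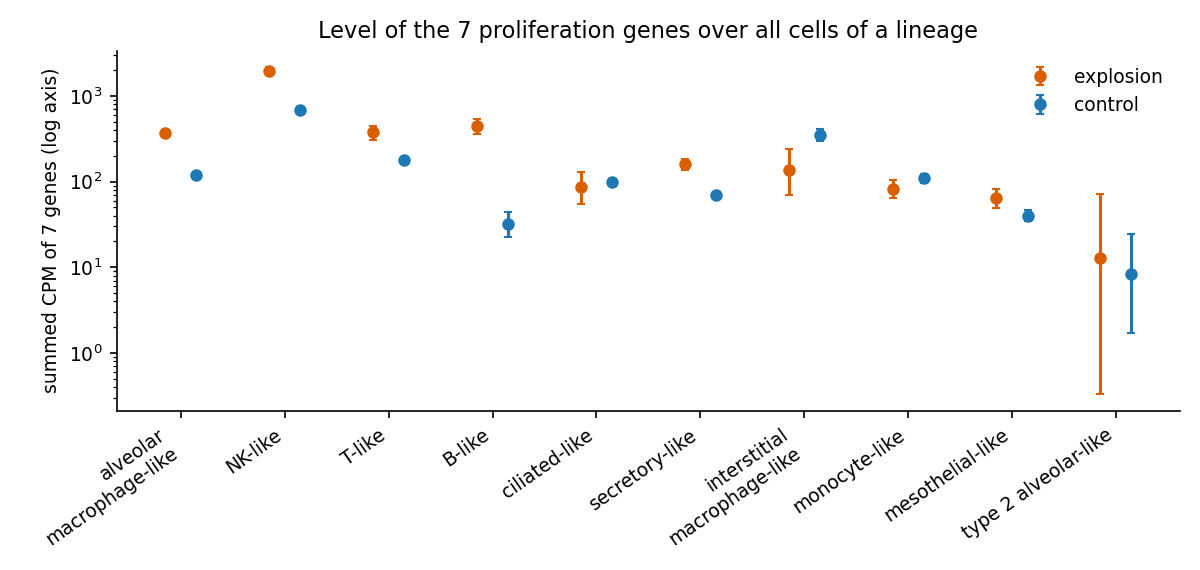
Summed level of the 7 gate genes over all cells of each lineage, cycling or not, in CPM on a log axis, in explosion (orange, drawn first) and control (blue), with exact Poisson 95% intervals. NK-like cells stand highest in both libraries (1971 and 682 CPM), B-like cells have the widest gap (443 against 32.1 CPM), and interstitial macrophage-like cells are lower in explosion (136 against 351 CPM).

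Ciliated-like cells cycled in 1 of 278 explosion cells (0.360%) and in 30 of 859 control cells (3.49%, 2.37 to 4.95), a ratio of 0.103 (0.00253 to 0.620). This difference was not detectable at matched depth: thinned to 500 UMIs the gate took 0 of 200 explosion cells, which allows up to 1.5%, and 1 of 632 control cells, and the gate genes were at 86.6 CPM over explosion ciliated-like cells against 98.4 CPM in control (0.880-fold, 0.561 to 1.32). Cenpf gave 19 of the 24 explosion UMIs, 3 of them in the cycling cell, and 548 of the 963 control UMIs, 222 of them in cycling cells, so the near-equal level was largely that of Cenpf. The 30 control cells were also deep, with a median of 24120 UMIs (3156 to 93200), against 4773 UMIs in other ciliated-like cells. All 30 had Cenpf, 25 Top2a, 24 Cdk1, 21 Mki67 and 9 Nusap1, whereas Mki67 was the most frequent gate gene over all control cycling cells.

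Their mitosis genes stood further above other ciliated-like cells than their S phase genes did. Mitosis genes were at 1424 CPM in cycling against 252 CPM in other ciliated-like cells (5.65-fold, 5.26 to 6.07), with 33 of 36 members at least 2-fold higher and 1 lower, where 10.0% of all genes were higher and 13.9% lower. S phase genes were at 424 against 397 CPM (1.07-fold, 0.953 to 1.19), with 9 of 31 members at least 2-fold higher and 2 lower. Ndc80, of the kinetochore, was 92.5-fold, Cdc20, an activator of the anaphase-promoting complex, 47.5-fold, Plk4, the kinase that starts centriole duplication, 42.0-fold and Stil, its partner in centriole assembly, 91.2-fold higher. Aurkb, the kinase of the passenger complex, was lower, at 0.272-fold with 11 UMIs in cycling and 440 in other cells, and so was Cdkn1c, a cell cycle inhibitor, at 57.1 against 155 CPM (0.369-fold, 0.270 to 0.494).

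Genes of multiciliated precursors were high in the same 30 cells. Ccno, a cyclin needed for centriole amplification, had a UMI in 22 of 30 cycling and 26 of 829 other ciliated-like cells of control (291 against 9.82 CPM, 29.7-fold, 23.2 to 38.3). Foxn4, a transcription factor of this stage, had one in 12 of 30 against 2 of 829 (36.4 against 0.446 CPM, 81.6-fold, 28.8 to 319). Deup1, which builds the deuterosomes on which centrioles form, had one in 25 of 30 against 232 of 829 (317 against 43.6 CPM, 7.27-fold), Hes6 in 28 of 30 against 303 of 829 (4.79-fold), Mcidas, the regulator that starts the programme, in 9 of 30 against 4 of 829, and Gmnc in 1 of 30 against 22 of 829. In control alveolar macrophage-like cells outside the gate, which should lack the programme, Ccno had a UMI in 12 of 9229, Foxn4 in 2, Mcidas in 3 and Deup1 in 47, but Hes6 in 1419. The ciliated markers summed to 4804 CPM in cycling against 6363 CPM in other cells (0.755-fold). Sec14l3 was at 223 against 1401 CPM (0.159-fold, 0.137 to 0.184), and Dnah9, an outer arm dynein, at 47.4 against 150 CPM, while Foxj1, the master regulator of motile cilia, was at 197 against 182 CPM. Without the 3 called doublets Ccno remained in 21 of 27 against 25 of 772 and Foxn4 in 12 of 27 against 2 of 772.

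Of the 48 control ciliated-like cells with a UMI of Ccno, Mcidas or Foxn4, 22 (45.8%, 31.4 to 60.8) passed the gate. This subset was chosen after its values were seen. Among the 32 unassigned control cycling cells 10 had one of the 3 genes, and 35 of all 322 did. In the explosion library 0 of 157 cycling cells had one (0%, 0 to 2.32), but only 1 of the 157 was ciliated-like. Of the other ciliated-like cells of explosion 1 of 277 had one. These had a median of 765 UMIs, against 4773 UMIs in control, so the counts were taken at unlike depths. Deup1 was at 65.0 CPM over explosion ciliated-like cells against 66.6 CPM in control. Markers of other cell types moved with these results: in the 30 cells T markers summed to 82.6 against 18.9 CPM in other ciliated-like cells (Cd3e in 5 of 30 against 17 of 829), alveolar macrophage markers to 800 against 467 CPM (Mrc1 in 16 of 30 against 222 of 829) and NK markers to 3.64 against 4.57 CPM. Their part in the result was not tested.

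**Figure D4:**
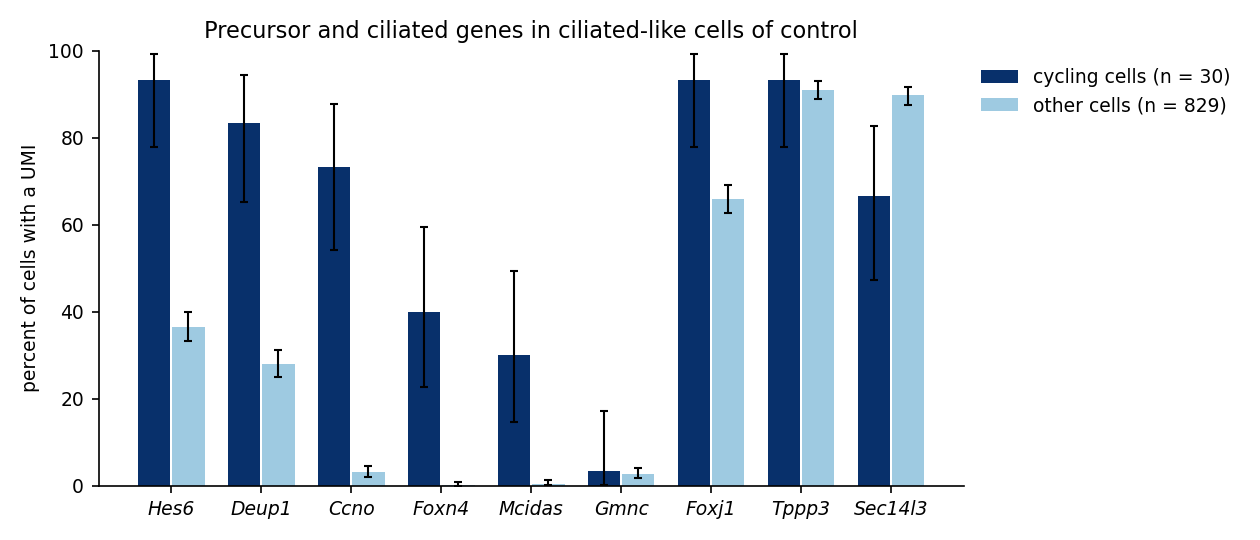
Percent of ciliated-like cells of the control library with a UMI of each gene, in the 30 cycling cells (dark) and the 829 other cells (light), with exact 95% intervals. Ccno, Foxn4 and Mcidas are seen in 22, 12 and 9 of the 30 cycling cells and in 26, 2 and 4 of the 829 other cells, while Tppp3 is frequent in both and Sec14l3 less frequent in the cycling cells; cycling cells were also sequenced more deeply.

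The remaining lineages gave few cycling cells. Interstitial macrophage-like cells cycled in 1 of 168 explosion and 6 of 127 control cells (4.72%), and their gate genes were at 136 CPM in explosion against 351 CPM in control (0.388-fold, 0.196 to 0.697). Monocyte-like cells gave 1 of 1494 and 7 of 1013, with gate genes at 82.2 against 109 CPM. Secretory-like cells gave 4 of 703 and 9 of 1764. Their gate level of 159 CPM in explosion against 69.4 CPM in control was mostly Cenpf (126 and 57.1 CPM), and 16.6% and 18.8% of it lay in cells that passed the gate. Mesothelial-like cells gave 4 of 1140 and 3 of 1429, and fibroblast-like cells 1 of 395 and 1 of 105. Blood endothelial-like cells gave 0 of 218, which allows up to 1.38%, and 1 of 180. Type 2 alveolar-like cells, the surfactant-producing progenitors of the alveolus, gave 0 of 105 explosion cells, which allows up to 2.86%, and 0 of 133 control cells, which allows up to 2.26%, so a small dividing fraction was not detectable at these cell numbers. Plasmacytoid dendritic-like cells gave 0 of 214 and 0 of 49. Neutrophil-like cells (1 of 312) and neuroendocrine or tuft-like cells (3 of 176, all 3 called doublets) could be named in control only.

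The balance of S phase and mitosis genes differed between cycling lineages. In explosion S phase genes gave 40.5% (38.3 to 42.7) of the summed S phase and mitosis UMIs in cycling alveolar macrophage-like cells, 35.4% (31.3 to 39.6) in NK-like, 43.0% (34.9 to 51.3) in T-like and 30.3% in the 7 B-like cells. In control they gave 36.4% (35.7 to 37.1) in alveolar macrophage-like, 21.4% (19.0 to 24.0) in NK-like, 50.6% (48.1 to 53.1) in T-like and 22.9% (20.8 to 25.1) in ciliated-like cells. The order T-like above alveolar macrophage-like above NK-like was the same in both libraries, though the explosion intervals of neighbours in this order overlap. Cells outside the gate stood at 67.0% in explosion and 68.5% in control.

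**Figure D5:**
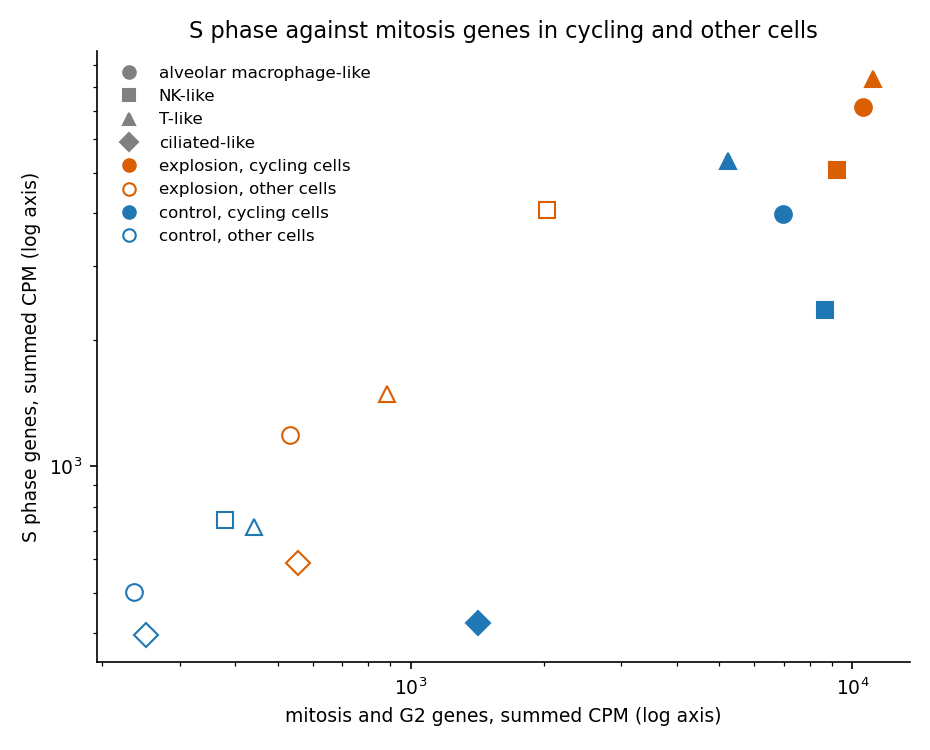
Summed S phase genes against summed mitosis and G2 genes (both in CPM on log axes) in cycling cells (filled) and other cells (open) of explosion (orange) and control (blue), for groups of at least 7 cells and without error bars; symbols give the lineage. Cycling alveolar macrophage-like and T-like cells lie up and to the right of their other cells, whereas control ciliated-like cells lie to the right at about the same height (424 and 397 CPM of S phase genes).

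Cycling alveolar macrophage-like cells were next compared between explosion and control. These cells had a median of 1718 UMIs in explosion and 9057 UMIs in control, so the gate acts on this contrast through depth. Its part in the ratios below was not tested. Mitosis genes outside the gate were at 10540 CPM in explosion against 6959 CPM in control (1.51-fold, 1.43 to 1.61), with 12 of 42 members at least 2-fold higher and 2 lower, where 32.1% of all genes were higher and 12.7% lower. The count of members is thus no larger than the background. With Scgb1a1, mitochondrial and ribosomal protein genes and Rn45s left out of the total, every gene moved by -0.11 on the log2 scale and the ratio was 1.40. S phase genes were at 1.80-fold (1.67 to 1.94), with 17 of 40 members higher, and DNA damage and repair genes at 1469 against 585 CPM (2.51-fold, 2.12 to 2.97), with 11 of 15, beside a median over all genes of 0.52 on the log2 scale. Cells of the class outside the gate showed 2.26-fold for mitosis, 2.36-fold for S phase and 2.79-fold for DNA damage genes, where 38.9% of all genes were higher and 7.66% lower, so none of these was larger in the cycling cells. Incenp was 4.46-fold higher in explosion cycling cells (5.18-fold in other cells), Dtl 4.57-fold (24.1), Brca2, of homologous repair, 4.44-fold, Atm, the damage kinase, 3.78-fold, Il2rg, the common cytokine receptor chain, 3.15-fold and Csf1r, the receptor of macrophage colony-stimulating factor, 2.33-fold. Hypoxia and glycolysis genes summed to 0.687-fold (0.599 to 0.784) in cycling cells, but 0 of 10 tested members were at least 2-fold higher and 1 was lower, with a median of -0.12 on the log2 scale. In other cells of the class the sum was at 0.679-fold with 3 of 12 members higher and 1 lower. The low sums held the abundant Pfkp, platelet phosphofructokinase, at 0.302-fold, Gapdh at 0.513-fold and Ldha, lactate dehydrogenase, at 0.600-fold. Hmgb2 at 0.505-fold, H2az1, a histone variant, at 0.556-fold and Ccnb2, cyclin B2, at 0.258-fold were lower as well. Of the lineage's lipid genes, Fabp4 was at 0.452-fold in cycling (0.323 in other cells) and Lpl, lipoprotein lipase, at 2.90-fold (3.33).

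Outside the lists, the genes highest in explosion over control cycling alveolar macrophage-like cells were largely as high in other cells of the class. Trnv, a symbol of a valine transfer RNA that the symbol filter for mitochondrial genes did not remove, was 67.5-fold higher (92.5-fold in other cells). Syne2, a nuclear envelope spectrin, was 7.58-fold (5.12), Ralgapa2 6.21-fold (5.24), the splicing factors Rbm25 5.74-fold (3.46) and Prpf38b 5.47-fold (5.00), Arrb1, a beta-arrestin, 5.24-fold (4.12) and Ptk2b, a focal adhesion kinase, 4.84-fold (4.76). Cxcl1, a neutrophil chemokine, was at 397 CPM in explosion against 24.8 CPM in control (16.0-fold, 10.3 to 24.9), and at 3.35-fold in other cells; its 44 explosion UMIs came from 11 cells, with 14 in the highest. The lowest genes had 0 UMIs in the 62 explosion cells and are lower bounds against 3 counts: Polr2j, a subunit of RNA polymerase II, was at least 7.25-fold lower (0.311-fold in other cells), Dstnl1 at least 5.98-fold (0.0708) and Ltc4s at least 3.86-fold (0.134).

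Cycling NK-like cells had the same summed mitosis level in explosion and control within counting error, at 9237 against 8660 CPM (1.07-fold, 0.939 to 1.21), with 6 of 36 members at least 2-fold higher and 7 lower, where 25.3% of all genes were higher and 17.2% lower. With Scgb1a1, mitochondrial and ribosomal protein genes and Rn45s left out of the total, the ratio turned to 0.939, since that scaling moved every gene by -0.18 on the log2 scale. S phase genes were at 5057 against 2358 CPM (2.15-fold, 1.76 to 2.61), with 9 of 16 members higher. Over members with at least 30 UMIs alone the S phase ratio was 1.53 (0.908 to 2.54), an interval that includes no difference. Cycling NK-like cells had a median of 1177 UMIs in explosion and 3835 UMIs in control, so the gate acts on this contrast through depth too. Growth factor and cytokine receptors were at 2129 against 1084 CPM (1.97-fold, 1.45 to 2.65), but 3 of the 20 members had at least 10 UMIs and Il2rb gave 49 of the 80 explosion and 43 of the 108 control UMIs. Il2rb, the signalling chain of the interleukin 2 and 15 receptors, was at 1304 CPM in explosion against 432 CPM in control (3.02-fold, 1.97 to 4.66), and at 1.61-fold in other NK-like cells. Chromatin and tubulin genes summed to 0.7998-fold (0.719 to 0.889), with 0 of 12 members at least 2-fold higher and 2 of 12 lower, a share near that of all genes. Incenp was 2.92-fold and Cenpe 2.40-fold higher in explosion, whereas Pttg1 was at 0.129-fold (2 against 41 UMIs), Cdc20 at 0.274-fold, Stmn1 at 0.455-fold and H2az1 at 0.373-fold. In NK-like cells outside the gate the explosion level was 5.36-fold for mitosis genes and 5.46-fold for S phase genes, where 33.3% of all genes were at least 2-fold higher and 9.82% lower.

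Beyond the lists, Chd4, a chromatin remodeller, was 4.50-fold (2.31-fold in other cells), Klf6, a transcription factor, 3.87-fold (1.05), Prpf38b 4.42-fold (5.52), Srsf11 3.98-fold (5.04) and Macf1 3.43-fold (4.03) higher in explosion cycling NK-like cells. The antigen presentation genes at the low end rested on 1 control cell: it held 113 of the 133 control UMIs of Cd74, 111 of 123 of RT1-Db1, 100 of 113 of RT1-Da and 74 of 78 of Cst3. Pfdn5, a chaperone subunit at 0.0829-fold (1 against 32 UMIs), Lamtor4 at 0.0884-fold and Snrpd2 at 0.138-fold were lower with UMIs spread over 18, 15 and 25 control cells.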

How the data were processed

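Per the labels' protocols, enzyme-dissociated rat lung was captured with the 10x Chromium 3′ kit v3, with 1 explosion and 1 control library. The deposited files hold raw UMI counts per gene and barcode: Cell Ranger 7.1.0 stands in the file headers. The submitters' processing notes list, with no role, mRatBN7.2 and rn6 as builds and Cell Ranger 6.1.1 and bcl2fastq 2.20 as tools. No reads were reprocessed.

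Of 12642 explosion and 21117 control barcodes, 12450 and 21096 had at least 200 genes; no mitochondrial filter was applied. Cells were clustered without cell cycle genes (2000 variable genes, 30 principal components, 15 neighbours, Leiden resolution 1; scanpy 1.11.5, igraph 0.11.9), and 26 of 30 clusters were named from at least 3 detected markers. Each cell was then assigned by a multinomial likelihood over marker genes against the mean profiles of named clusters of its own library (13 in explosion, 15 in control), needing a 10-fold margin and 1 marker UMI; 37 explosion and 32 control cycling cells stayed unassigned. Scrublet called 511 explosion (4.10%) and 1775 control (8.41%) doublets, of which 7 and 25 were cycling; they were kept, and left out as an alternative. UMIs were summed per library, lineage and class and divided by all their UMIs (CPM). A gene needed 10 UMIs over both sets, and a fold of at least 2 with 0.5 counts added was counted. With 1 library a group no test was possible. The intervals of ratios and shares were tested on simulated counts, a check that did not cover the spread between cells, the gate, lineage assignment, thinning, clustering or doublet calls. Python 3.11.15, scipy 1.17.1, numpy 2.4.6 and pandas 2.3.3 were used.

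The members and lists were chosen with earlier results of these data known. The lineage scoring and cluster naming rules were settled after seeing the data, 2 other scorings (a Poisson excess over the library mean, and the most markers detected) having been tried. Depth bins, the subset with Ccno, Mcidas or Foxn4 and the doublet-free ciliated check were also chosen after seeing the data. Named genes were the 7 gate genes, the 3 highest and 3 lowest of each list with at least 30 UMIs, and the 8 highest and 8 lowest others with at least 50 CPM and 30 UMIs whose interval excluded 1.5-fold, leaving out other lineages' markers and genes of mitochondria, ribosomes, hemoglobin and antigen receptors. Trp53inp1, Car4, Trac and Ighm did not match a symbol. Marco and Cdc20b had 0 UMIs. A total of 6 strings were scanned in the promoters.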

Additional observations from a re-analysis of the deposited data

How the results depend on the processing

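Of 96 alternative values over 17 results, 66 stayed within the counting interval, 25 moved beyond it and 5 turned round against a value of 1. The main values of those 5 had intervals that include 1. The cause was not tested. For the explosion over control ratio of the cycling share of all cells, requiring 4 gate genes gave 0.621, at least 500 genes per cell 1.79, thinning to 500 UMIs 2.81, to 1000 UMIs 4.93, and cells of at least 1000 UMIs 2.46, the last 4 turned round against 0.826. Within alveolar macrophage-like cells thinning to 1000 UMIs gave 4.42, and within NK-like cells at least 500 genes gave 3.92, thinning to 1000 UMIs 7.32 and at least 1000 UMIs 7.34. The ratio of the share of cycling cells that were alveolar macrophage-like was 0.962 thinned to 1000 UMIs, and that of NK-like cells 1.49 thinned to 500, 1.18 thinned to 1000 UMIs and 1.25 with 2 markers required. Counting only members with at least 30 UMIs gave mitosis ratios of cycling over other cells of 3.70 (NK-like, explosion), 17.2 (NK-like, control) and 18.0 (alveolar macrophage-like, explosion), an S phase ratio of 2.68 (NK-like, control) and an explosion over control S phase ratio of 1.53 (0.908 to 2.54; cycling NK-like). With called doublets left out the control mitosis ratios were 19.6 (NK-like) and 30.4 (alveolar macrophage-like) and the S phase ratio of alveolar macrophage-like cells 8.14. Requiring 4 gate genes gave mitosis ratios of 22.0 in explosion and 32.4 in control and an S phase ratio of 8.48 in control (alveolar macrophage-like), 1.01 for S phase (NK-like, explosion), and explosion over control S phase ratios of 1.74 (NK-like) and 1.62 (alveolar macrophage-like). Leaving Scgb1a1, mitochondrial, ribosomal protein genes and Rn45s out of the total gave explosion over control mitosis ratios of 0.939 in cycling NK-like cells, a uniform shift of every gene with an interval that again includes 1, and 1.40 in alveolar macrophage-like cells, with 1.67 for S phase. No paired analysis was possible because each group has 1 library, and no replicate could be left out. Naming lineages by cluster gave ratios of the cycling share of 1.35 (0.779 to 2.25) for alveolar macrophage-like and 2.05 (1.27 to 3.37) for NK-like cells, and 0.5945 and 4.33 for their shares of cycling cells. The alveolar macrophage-like values by cluster leave out the unnamed cluster 20, with 40 explosion and 90 control cycling cells that single-cell markers gave to that class. The explosion library had the lower depth, with a median of 546 UMIs per cell against 4920.5 in control.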
